A study of Rattus norvegicus with 3 samples.

Results

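Wnt8b, Wnt3a, Wnt2b, Wnt5a, Wnt7b, Bmp4, Bmp7, Rspo1, Rspo2 and Rspo3 encode secreted Wnt, BMP and R-spondin ligands linked with the cortical hem, and were read together in the embryonic rat cortex. They are 10 of the 29772 genes in the deposited count matrices and were taken by name, with no threshold on their counts. Cells of wild-type rat embryonic cerebral cortex, which the labels give as fresh and taken apart with papain, were sequenced singly with a droplet 3′ chemistry in 3 libraries. The libraries carry the labels E14, E16 and E18, for embryonic days 14, 16 and 18, with 1 library each, and neither the number nor the sex of the embryos is stated. No difference between libraries therefore has a replicate check or a p-value, and the intervals given are at 95% and cover counting error alone.

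The cortical hem is a strip of neuroepithelium at the medial edge of the embryonic telencephalon, between the future hippocampus and the choroid plexus. It secretes Wnt and BMP proteins that pattern the adjoining cortex, and it gives rise to many Cajal-Retzius neurons. Wnt ligands bind Frizzled and Lrp receptors and turn on targets such as Axin2. BMPs act through serine/threonine kinase receptors and Id genes, and R-spondins raise the response to Wnt by keeping the ligases Znrf3 and Rnf43 from removing Frizzled receptors.

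After filtering, 4286, 4977 and 5431 cells remained in the libraries labelled E14, E16 and E18, with median depths of 11193, 12276 and 10475 unique molecular identifiers (UMIs) per cell. Between 7 and 8 kept barcodes were shared by each pair of libraries. The labels do not follow the stage genes of radial glia-like cells. Hmga2, an early progenitor gene, stood at 11.7, 225 and 20.9 UMIs per 1000000 (CPM) in the order E14, E16 and E18, and the late gene Aldoc stood at 721, 17.1 and 240 CPM. All 3 early genes read (Hmga2, Lin28b and Ccnd1) were highest in the library labelled E16. The 4 late genes read (Aldoc, Tnc, Apoe and Hopx) were highest in that labelled E14 and lowest in that labelled E16. Hmga2 and Lin28b were lowest in the library labelled E14, whereas Ccnd1 was lowest in that labelled E18, at 45.8 against 67.7 CPM. Directions below are between the libraries as labelled and are not read as a course of development. Many clusters came mostly from 1 library, so the cells behind a class name can differ from library to library. The clusters of radial glia-like cells labelled E16 held few of those labelled E14 and E18.

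Over all kept cells, most of the ligands were highest in the library labelled E16 and near absent from the one labelled E14. Wnt8b, a Wnt of the hem and medial pallium, was at 0.133 CPM (7 UMIs) in the library labelled E14, 49.5 CPM in E16 and 11.9 CPM in E18. Wnt3a, which is needed for growth of the hippocampus, was at 0.0189, 5.04 and 1.37 CPM in that order, and Wnt2b was at 0.0379, 1.53 and 0.647 CPM. Rspo1 was at 0.303, 22.6 and 4.78 CPM and Rspo2 at 0.152, 19.1 and 5.21 CPM. Bmp4 was at 0.0568, 8.31 and 3.95 CPM and Bmp7 at 0.833, 11.4 and 6.32 CPM. For these 7 genes the library labelled E16 was highest and that labelled E14 lowest, and the counting intervals of the 3 libraries did not overlap.

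The other 3 ligands had other orders. Wnt5a, a ligand best known for signalling without beta-catenin, was at 1.69 CPM in the library labelled E14 and at 6.10 and 6.12 CPM in those labelled E16 and E18, which did not differ beyond their intervals. Wnt7b, a Wnt made by cortical neurons, was lowest in the library labelled E16, with 73.0, 17.9 and 52.4 CPM. Rspo3 was at 26.3, 35.5 and 26.8 CPM. Both depended on the filter on cells. With at least 2000 genes and at most 5% mitochondrial UMIs per cell, the log2 ratio of E16 over E14 went from 0.42 to 2.91 for Rspo3 and from -1.97 to -0.24 for Wnt7b. For Wnt7b and Rspo3 the direction between the libraries labelled E14 and E18 changed with the filter on cells or the doublet rate, so none is read from it.

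A gene was counted as different between libraries when its CPM, with 1 CPM added, differed at least 2-fold and reached 5 CPM in 1 of the 2 libraries. In E16 over E14, 7 of the 9 ligands that reached this minimum were higher, namely Wnt8b, Wnt3a, Wnt5a, Bmp4, Bmp7, Rspo1 and Rspo2, against 12.4% of 10823 genes. Wnt7b was the 1 ligand called lower, against 14.3% of genes. In E18 over E14, 4 of 6 were higher (Wnt8b, Wnt5a, Bmp7 and Rspo2), against 7.6% of genes, and 0 were lower, against 4.86%. In E18 over E16, Wnt7b alone of 9 was higher, against 6.07% of genes, and Wnt8b, Wnt3a, Rspo1 and Rspo2 were lower, against 1.51%. The 4 ligands higher in E18 over E14 became 1 with doublets removed at 2 times the rate or with 5 CPM added, 2 with the stricter filter on cells or with cells weighted equally, and 7 with no minimum. With a minimum of 20 CPM the counts of 7, 4 and 4 became 2, 0 and 2, since most of the ligands are below 20 CPM when all cells are summed. With that stricter filter both calls of Wnt7b ended. The share of each cell class also differed between libraries. Excitatory neuron-like cells were 77.5%, 0.0603% and 42.5% of cells labelled E14, E16 and E18, and radial glia-like cells 9.68%, 60.9% and 34.9%. A further 11.2% of cells labelled E16 were in an unnamed class led by Calb1 and Calb2. The hem-like, choroid plexus-like, diencephalon-like and meningeal or fibroblast-like classes held 0 cells labelled E14. Fewer cells of a class and less RNA per cell cannot be told apart in these sums.

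**Figure D1:**
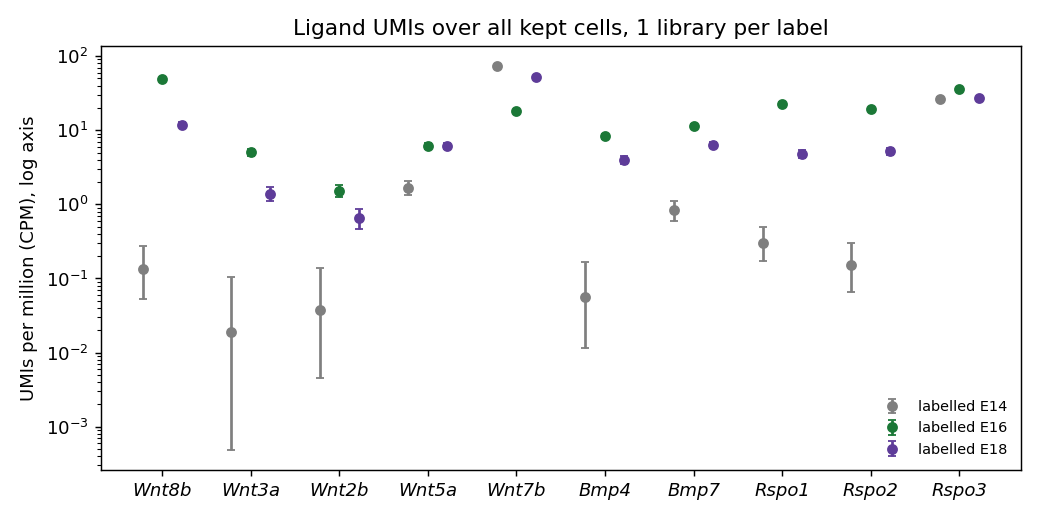
UMIs per 1000000 over all kept cells (log axis) for the 10 ligands in the libraries labelled E14 (4286 cells), E16 (4977 cells) and E18 (5431 cells). Bars are 95% counting intervals. The points labelled E14 lie below both others, with no overlap of intervals, for 8 ligands, whereas Wnt7b is lowest in the library labelled E16 and Rspo3 lies between 26.3 and 35.5 CPM in all 3.

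The cells with the highest levels formed a small hem-like class of 83 cells, clustered without the 10 ligands and the 76 listed genes of their pathways. Of the 6 markers that named it, however, Fzd10 encodes a Wnt receptor and Bambi a BMP pseudoreceptor. It held 68 cells labelled E16, or 1.37% of that library, and 15 labelled E18, or 0.276%. Under 8 other filters, doublet rates and clusterings the class numbered 40 to 92 cells. 0 of 4286 cells labelled E14 fell in it, which allows a share of up to 0.07% with 3 cells as the floor. All 6 hem markers used for naming were detected in at least 20% of its cells. Lmx1a, a transcription factor of the hem and roof plate, had a UMI in 77.1% of the cells, against 0.356% of radial glia-like cells. Msx2 was detected in 68.7%, Bambi in 51.8%, Fzd10 in 39.8%, Dkk3 in 32.5% and Msx1 in 31.3%. Choroid plexus-like cells shared 4 of these markers, with Lmx1a in 77.4%, Msx1 in 84.7%, Msx2 in 70.2% and Bambi in 53.2%. They had Fzd10 in 4.84% and Dkk3 in 9.68%. The hem-like class also carried Ttr, the main product of choroid plexus epithelium, at 1432 CPM, whereas choroid plexus-like cells had 83806 CPM and radial glia-like cells 19.3 CPM. Of the 12 choroid plexus markers, 3 were detected in at least 20% of hem-like cells and 5 were at 0. The part of Ttr in the ligand levels was not tested.

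In the 68 hem-like cells labelled E16, Wnt8b stood at 907 CPM (851 to 966), Wnt3a at 232 CPM (204 to 263) and Wnt2b at 73.4 CPM (58.1 to 91.5). Rspo1 stood at 927 CPM (870 to 986), Rspo2 at 778 CPM (726 to 833) and Rspo3 at 893 CPM (838 to 952). Wnt7b was at 244 CPM (216 to 276), Bmp7 at 126 CPM (106 to 150) and Bmp4 at 122 CPM (102 to 144). Wnt5a was the least represented, with 24 UMIs or 22.3 CPM (14.3 to 33.2). The 3 R-spondins and Wnt8b were thus each carried by nearly every hem-like cell labelled E16, with a UMI in 98.5% to 100% of them. The 15 hem-like cells labelled E18 are too few for a comparison. They held 205 UMIs of Wnt8b, 65 of Wnt3a, 20 of Wnt2b, 6 of Wnt5a, 54 of Wnt7b, 12 of Bmp4, 28 of Bmp7, 202 of Rspo1, 137 of Rspo2 and 160 of Rspo3, among 216790 UMIs.

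All 10 ligands were at least 2-fold higher in hem-like than in radial glia-like cells of the library labelled E16, as were 12.1% of 10586 genes. None was lower, as were 4.92% of genes. The 5 Wnts differed widely in that ratio. Wnt2b, with 4 UMIs in 3030 radial glia-like cells, was 858-fold higher (322 to 3226). Wnt3a was 286-fold higher (203 to 413), Wnt7b 39.1-fold (33.0 to 46.4), Wnt8b 23.4-fold (21.6 to 25.3) and Wnt5a 6.13-fold (3.82 to 9.44). The R-spondins separated the classes more widely than Wnt8b did. Rspo1 was 279-fold higher (236 to 333), Rspo2 1398-fold (948 to 2153) and Rspo3 1265-fold (895 to 1848). Bmp4 was 271-fold higher (170 to 452), and Bmp7, which radial glia-like cells also carried at 7.90 CPM, was 16-fold higher (13.1 to 19.5).

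Ranked over 17 classes with the libraries pooled, hem-like cells had the highest class level of 9 of the 10 ligands, all except Wnt5a, as they did for 7.29% of 14666 genes of at least 5 CPM in a class. In the library labelled E16 alone, over 11 classes, they were highest for the same 9, against 11.8% of genes, and the lead over the next class there was wide for some and small for others. Wnt3a led choroid plexus-like cells 11.4 times (8.01 to 16.6), Rspo1 led the next class 10.1 times (8.74 to 11.8) and Wnt2b 9.25 times (4.90 to 19.3). Wnt8b and Rspo2 led choroid plexus-like cells 4.23 and 4.12 times, and Bmp7 2.23 times (1.71 to 2.92). Rspo3 led diencephalon-like cells 2.59 times (2.28 to 2.94). Wnt7b was at 244 CPM in hem-like and 226 CPM in Cajal-Retzius-like cells, a lead within counting error. With the libraries pooled, Bmp4 was at 111 CPM in hem-like cells and 101 CPM in an unnamed class of 226 cells, most of them led by Fgf17 and Fgf8. Of the 269 Bmp4 UMIs in that class, 227 came from a cluster of 29 cells with other leading genes, where Bmp4 reached 501 CPM (438 to 571), above the hem-like level. That cluster (17 cells labelled E16 and 12 labelled E18) scored highest for the hem markers, of which 4 passed, but stayed unnamed because the choroid plexus marker Otx2 is among its leading genes. Wnt5a was highest in meningeal or fibroblast-like cells at 64.2 CPM (52.8 to 77.4), followed by choroid plexus-like cells at 39.9 CPM (33.3 to 47.4). GABAergic lineage-like cells were at 27.1 CPM of Wnt5a when pooled, but at 65.9 CPM (42.6 to 97.3) in the library labelled E14. Under 8 of 8 other filters, doublet rates and clusterings, hem-like cells were the highest named class for 9 of the 10 ligands.

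**Figure D2:**
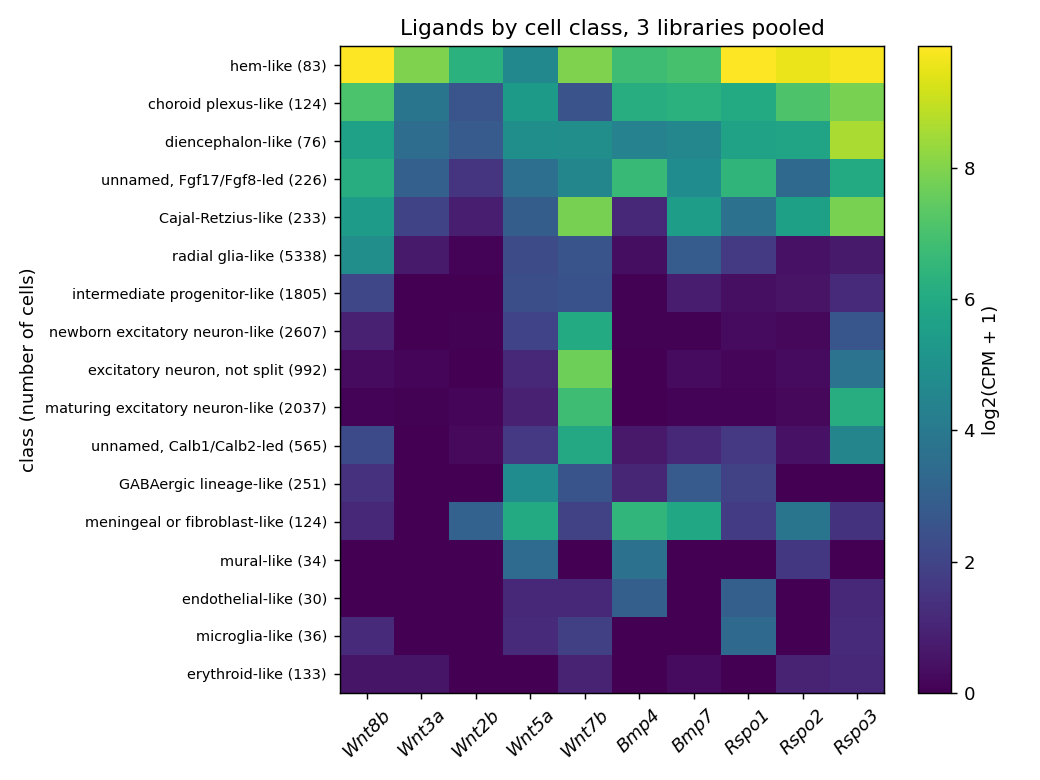
Level of each ligand as log2(CPM + 1), by class (rows, with the number of cells) and gene (columns), with the 3 libraries pooled. The hem-like row of 83 cells holds the highest value in 9 of 10 columns, and the Wnt7b and Rspo3 columns extend into the neuron rows.

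The share of a gene's UMIs held by these 83 cells gave a different picture from the level. They held 70.0% of all Wnt3a UMIs in kept cells, 64.7% of Wnt2b, 61.8% of Rspo1 and 57.0% of Rspo2. They held 27.4% of Wnt8b, since 51.8% of its UMIs lay in the far more numerous radial glia-like cells. Of Rspo3 they held 19.8%, of Bmp4 16.8% and of Bmp7 13.0%. The smallest pooled shares were those of Wnt7b, at 3.71%, and Wnt5a, at 3.26%. These pooled shares include the library labelled E14, which had no hem-like cell, and the order changed within the library labelled E16. There the hem-like cells held 37.9% of Rspo3, 27.6% of Wnt8b, 22.1% of Bmp4, 20.5% of Wnt7b, 16.8% of Bmp7 and 5.52% of Wnt5a. Pooled and in E16 alone, more UMIs of Wnt3a, Wnt2b, Rspo1 and Rspo2 lay inside the hem-like class than outside it, and those of the other 6 lay mostly outside.

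Shares of cells were compared at 2000 UMIs per cell, to which each cell was thinned. At that depth Wnt8b was present in 79.4% of hem-like cells labelled E16 (98.5% before thinning), Rspo1 in 80.9%, Rspo3 in 76.5%, Rspo2 in 69.1%, Wnt7b in 47.1% and Wnt3a in 39.7%. Bmp7 was present in 27.9%, Bmp4 in 20.6% and Wnt2b in 13.2%. The background was read in 123 erythroid-like cells of the same library, since none of its cells were named as maturing excitatory neurons, the background class first meant for 7 of the ligands. For Wnt7b the class first meant was the endothelial-, mural- and microglia-like cells, where it was present in 0 of 41 (exact upper limit 8.60%). At 2000 UMIs, Bmp7 was present in 1 of the 123 erythroid-like cells and the other 9 ligands in 0, which for each has an exact upper limit of 2.95%. Median depths before thinning were 12673 UMIs in the hem-like and 32368 in the erythroid-like cells, with medians of 3820 and 1325 genes. Thinning thus kept a smaller part of the UMIs of erythroid-like cells, which makes them a weak background. Wnt5a was present in 0 of 68 hem-like cells at this depth as well, so its presence in the class rests on the unthinned 23.5%, against 0 of 123 erythroid-like cells.

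Single hem-like cells carried many of the ligands together. The median cell had UMIs of 8 of the 10, and 82 of 83 cells had at least 5. UMIs of Rspo1, Rspo2 and Rspo3 occurred together in 82 cells, and those of Wnt8b and Wnt3a in 69. Of the 68 cells labelled E16, 67 had Wnt8b and 56 had Wnt3a, and 55 had both. Bmp4 was in 42 of them and Bmp7 in 49, and 34 had both. The overlap to be had from how many cells carried each gene was not computed, so these numbers are not read as a link between the genes. The median choroid plexus-like cell carried 5 of the ligands in the library labelled E16 and 4 in that labelled E18. The median radial glia-like cell carried 0, and 0 of 5338 had UMIs of all 3 R-spondins, which allows up to 0.0562% of cells with such UMIs, taking 3 cells as the floor.

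Across 24 combinations of class and library, the levels of Wnt8b, Wnt3a and Rspo1 followed each other closely, with Pearson's r of 0.88 for Wnt8b and Wnt3a, 0.93 for Wnt3a and Rspo1 and 0.93 for Wnt8b and Rspo1. These points share libraries and depth and the hem-like class carries much of the spread, so the values are descriptions. The pattern is not particular to these 3 genes, since r was 0.92 for Wnt3a and Wnt2b and 0.91 for Wnt8b and Rspo2. For the 3 genes, the 250 bases before their starts are printed from RefSeq on build GRCr8, whereas the counts were made on mRatBN7.2. Rspo2 had no promoter entry, and the Wnt2b window is not printed. The Wnt8b window is chr1:253303119-253303368 on the plus strand, the Wnt3a window chr10:44577920-44578169 on the minus strand and the Rspo1 window chr5:142536040-142536289 on the plus strand. Capitals mark the matches to the motifs named after the sequences.
Wnt8b: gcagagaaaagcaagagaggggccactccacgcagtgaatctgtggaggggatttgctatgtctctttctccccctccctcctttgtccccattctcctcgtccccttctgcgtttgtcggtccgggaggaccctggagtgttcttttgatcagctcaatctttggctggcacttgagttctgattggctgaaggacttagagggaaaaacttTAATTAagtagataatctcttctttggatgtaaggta
Wnt3a: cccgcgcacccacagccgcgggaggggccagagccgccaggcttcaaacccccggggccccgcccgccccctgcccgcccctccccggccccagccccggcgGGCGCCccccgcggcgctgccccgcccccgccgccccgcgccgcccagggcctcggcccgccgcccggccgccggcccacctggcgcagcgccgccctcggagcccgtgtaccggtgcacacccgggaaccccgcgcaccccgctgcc
Rspo1: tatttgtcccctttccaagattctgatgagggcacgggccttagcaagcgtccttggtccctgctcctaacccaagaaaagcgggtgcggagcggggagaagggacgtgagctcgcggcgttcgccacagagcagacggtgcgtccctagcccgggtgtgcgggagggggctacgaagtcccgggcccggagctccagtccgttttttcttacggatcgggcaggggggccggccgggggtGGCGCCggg
Of the 10 genes, 7 had an entry among 33469 promoters. Each window was searched on both strands for CTTTGA, the core read by TCF and LEF factors, for TAATTA, a homeodomain core, and for GGCGCC, a GC-rich Smad core. CTTTGA was in 0 of the 7 windows and in 13.9% of all promoter windows. TAATTA was in those of Wnt8b and Wnt5a and in 4.86% of all, and GGCGCC in those of Wnt3a and Rspo1 and in 8.69% of all. The windows differed in composition, with 48.8% G and C for Wnt8b, 86.8% for Wnt3a and 66.4% for Rspo1, against a median of 51.2% over all promoters. The Rspo1 window does not end at the first base of the RefSeq gene. A match or its lack is a description of these letters only.

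Choroid plexus-like cells, the epithelium that forms beside the hem, carried most of the same ligands at lower levels. In the library labelled E16 (83 cells), 8 of 9 ligands past the minimum were at least 2-fold higher there than in radial glia-like cells, as were 21.6% of genes, with Wnt7b the exception at 3.97 against 6.25 CPM, and 0 were lower, as were 11.6%. Against hem-like cells of that library, 8 of 10 were at least 2-fold lower in choroid plexus-like cells, as were 12.1% of genes, and 0 were higher, as were 14.8%. Wnt7b was at 3.97 CPM in the choroid plexus-like and 244 CPM in the hem-like cells, the widest of these gaps, and Wnt2b was at 4.53 against 73.4 CPM. Wnt3a was at 20.4 CPM, Rspo1 at 86.7, Rspo2 at 189, Bmp7 at 56.6, Wnt8b at 215 and Rspo3 at 341 CPM, each below the hem-like level. Bmp4 and Wnt5a were the 2 that missed the 2-fold mark. Bmp4 stood at 89.5 CPM (76.1 to 105) against 122 CPM, and Wnt5a at 41.4 CPM (32.4 to 52.0) against 22.3 CPM, so that Wnt5a was the 1 ligand with the higher value in choroid plexus-like cells.

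The clusters within the choroid plexus-like class differed in the ligands along with Ttr. In the cluster with the most Ttr (63 cells, 112847 CPM), Wnt8b was at 45.1 CPM, Wnt3a at 0 UMIs, Rspo1 at 25.3 CPM and Bmp4 at 31.4 CPM. In the cluster of 38 cells with 47043 CPM of Ttr, Rspo1 was at 167 CPM, Rspo2 at 312 CPM and Rspo3 at 468 CPM. In the cluster with the least Ttr (23 cells, 24413 CPM), Wnt8b was at 322 CPM, Bmp4 at 153 CPM and Wnt5a at 70.0 CPM. The library shares differed along this order, with 25 of 63, 13 of 38 and 3 of 23 cells labelled E18. In the cells labelled E16 alone (38, 25 and 20 cells), Wnt8b was at 96.6, 321 and 318 CPM from the most to the least Ttr, and Bmp4 at 39.8, 106 and 159 CPM. There too the 3 R-spondins were highest in the middle cluster. Clusters were named by the mean log2 ratio of each class's markers over their mean level in the 3 libraries. For choroid plexus against hem markers this was 3.85 against 1.82 in the cluster with the most Ttr, 3.02 against 2.36 in the middle one and 2.37 against 2.33 in the one with the least, so the last lies next to the cut between the classes.

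Between choroid plexus-like cells labelled E18 (41 cells) and E16 (83 cells), 6 of 10 ligands were at least 2-fold lower in E18, as were 8.74% of genes, and 0 were at least 2-fold higher, as were 7.92%. Wnt8b was at 33.9 CPM in E18 and 215 CPM in E16, a ratio of 0.158 (0.115 to 0.213). Rspo3 was at 103 and 341 CPM, a ratio of 0.303 (0.251 to 0.363), and Rspo2 at 74.8 and 189 CPM, a ratio of 0.397 (0.316 to 0.494). Rspo1, Wnt3a and Bmp4 were the others. Wnt5a did not differ beyond its interval, with 38.1 and 41.4 CPM. Bmp7 had the opposite order, with 101 CPM in E18 and 56.6 CPM in E16, a ratio of 1.79 (1.37 to 2.33), which was not called at 2-fold. The cluster with the most Ttr held 25 of the 41 cells labelled E18 and 38 of the 83 labelled E16, and its part in these ratios was not tested.

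**Figure D3:**
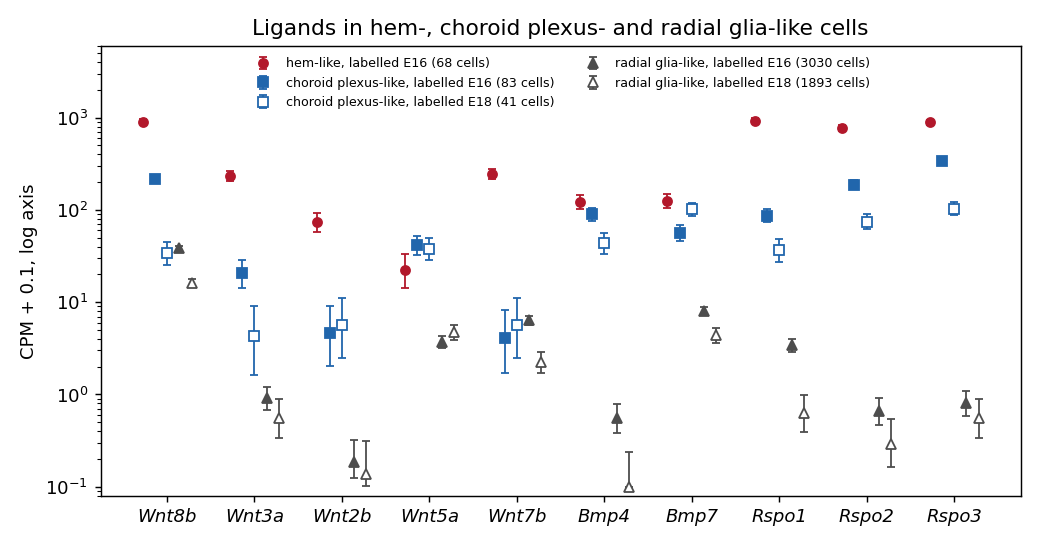
Levels of the 10 ligands (CPM with 0.1 added, log axis) in hem-like cells labelled E16 and in choroid plexus-like and radial glia-like cells labelled E16 (filled) and E18 (open), with 95% counting intervals. Hem-like cells lie highest for 9 ligands, and the open choroid plexus squares lie under the filled ones for Wnt8b, Wnt3a, Bmp4 and the 3 R-spondins but over them for Bmp7.

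Cells were also chosen by Lmx1a alone, which is a range of cells and not a type. Outside the choroid plexus-like class, 5, 114 and 48 cells labelled E14, E16 and E18 had an Lmx1a UMI. Of the 114, 54 lay in the hem-like class, 34 in the Cajal-Retzius-like and 13 in the radial glia-like class, and 61 rested on a single Lmx1a UMI. Compared with radial glia-like cells without Lmx1a, all 10 ligands were at least 2-fold higher in the library labelled E16, as were 10.6% of genes, and 0 were lower, as were 2.88%. Wnt3a was at 137 against 0.75 CPM there, and Rspo2 at 484 against 0.45 CPM. For E18 cells, 9 of 10 were higher, as were 18% of genes, and 0 were lower, as were 9.33%. The exception was Wnt5a, with 6.5 against 4.6 CPM.

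Radial glia-like cells, the dividing progenitors of the cortex, held 51.8% of the Wnt8b UMIs, 39.8% of those of Bmp7 and 33.6% of those of Wnt5a, the last 2 at low levels per cell, and at most 11.1% of those of each other ligand. Wnt8b was at 0.167 CPM (1 UMI in 415 cells) in the library labelled E14, 38.8 CPM in E16 and 16.1 CPM in E18. Bmp7 was at 3.68, 7.90 and 4.27 CPM, Wnt7b at 7.02, 6.25 and 2.14 CPM and Wnt5a at 3.01, 3.64 and 4.62 CPM. Bmp4 had 1, 21 and 0 UMIs, so its level in E18 was at most 0.255 times that in E16, with 3 UMIs as the floor. Of the 3 ligands past the minimum in E16 over E14, Wnt8b was higher, against 2.87% of genes, and 0 were lower, against 8.08%. In E18 over E14, Wnt8b was higher, against 1.21% of genes, and Wnt7b lower, against 3.86%. In E18 over E16, Wnt8b and Wnt7b were lower, against 0.883% of genes, and 0 were higher, against 2.23%. The log2 ratio of Wnt8b in E18 over E16 was -1.22, and it missed 2-fold under the stricter filter on cells (-0.96) and with no doublets removed (-0.96). The stricter filter also ended the call of Wnt7b in E18 over E16, and that of Wnt7b in E18 over E14 ended at 3-fold. With a minimum of 20 CPM, the call of Wnt8b in E18 over E14 ended, since its level is below it.

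Wnt8b was uneven among radial glia-like cells. In the library labelled E16, 502 of 3030 cells, or 16.6%, had a UMI, and 342 cells with 2 or more held 91.2% of its 1811 UMIs, with up to 34 in a cell. Of 1893 cells labelled E18, 5.49% had a UMI, and 79 cells with 2 or more held 94.1%. At 2000 UMIs per cell the shares were 5.28% (4.51% to 6.14%) and 1.71% (1.17% to 2.40%). In the library labelled E16, Wnt8b was then present in 0 of 123 erythroid-like cells, 1 of 120 GABAergic lineage-like cells (0.0211% to 4.56%) and 1 of 102 meningeal or fibroblast-like cells (0.0248% to 5.34%). It was present in 0 of 457 maturing excitatory neuron-like cells labelled E18, with an exact upper limit of 0.804%. The share labelled E18 lay above that limit, whereas the interval of the share labelled E16 overlapped those of the GABAergic lineage-like and the meningeal or fibroblast-like cells. The cells with more Wnt8b were also deeper, with median depths of 13263, 13755.5 and 17014 UMIs for 0, 1 and 2 or more Wnt8b UMIs in E16. The genes read across this split were chosen after the uneven pattern had been seen.

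Axin2, a direct Wnt target, was at 36.9 CPM in radial glia-like cells labelled E16 without Wnt8b, 71.4 CPM in those with 1 UMI and 120 CPM in those with 2 or more. In E18 it was at 31.9, 64.5 and 118 CPM. Lef1, which is both a Wnt effector and a target, was at 237, 327 and 433 CPM in E16 and at 170, 392 and 403 CPM in E18. Emx2, a transcription factor graded towards the medial cortex, was at 170, 225 and 267 CPM in E16. Other genes had the opposite order. Sfrp2, a secreted Wnt inhibitor, was at 45.1, 35.5 and 26.5 CPM in E16 and at 51.5, 39.2 and 26.1 CPM in E18, and Pax6 was at 198, 133 and 133 CPM in E16. The groups with 0 and with 2 or more did not overlap in their intervals for these genes in the library labelled E16. Lmx1a was at 0.108, 2.29 and 0.845 CPM in E16, from 4, 6 and 6 UMIs, and at 0.126, 0 and 1.57 CPM in E18. The hem-like class had 157 CPM of Lmx1a with the libraries pooled. Whether some hem-like cells or their RNA lay in these groups was not tested. Wnt3a was at 4.5 CPM and Rspo1 at 17.0 CPM in the group with 2 or more in E16, against 0.027 and 0.675 CPM in the group without Wnt8b. Other genes read in E16 differed less. Dmrta2 was at 129, 156 and 165 CPM, Emx1 at 152, 183 and 184 CPM, Lhx2 at 682, 854 and 751 CPM and Dmrt3 at 32.7, 47.3 and 46.0 CPM, and Dbx1 had 0 UMIs.

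**Figure D4:**
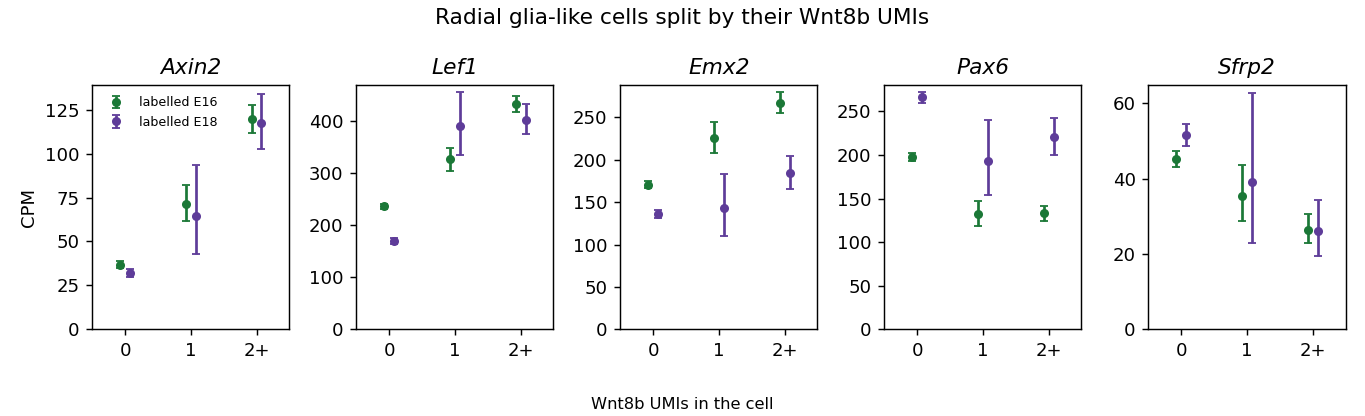
Levels (CPM) of 5 genes in radial glia-like cells labelled E16 and E18, split by the number of Wnt8b UMIs in the cell, with 95% counting intervals. Axin2 is at 36.9 CPM without Wnt8b and 120 CPM with 2 or more UMIs in E16, while Sfrp2 is at 45.1 and 26.5 CPM.

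Wnt7b and Rspo3 had a second site in neurons. Excitatory neuron-like cells held 78.6% of all Wnt7b UMIs and 41.7% of those of Rspo3. Wnt7b was at 100 CPM (96.2 to 104) in maturing and 78.2 CPM (73.8 to 82.7) in newborn neuron-like cells labelled E14. In the library labelled E18 it was at 146 CPM (136 to 155) in maturing, 38.0 CPM (33.8 to 42.7) in newborn and 202 CPM (193 to 212) in 991 cells that could not be split between these names and were led by Pcp4. Wnt7b was therefore present at every stage of excitatory neuron named here in the libraries labelled E14 and E18. Only 3 cells labelled E16 had such a name. Another 559 cells of that library, in the unnamed class led by Calb1 and Calb2, are not part of these values. Over all excitatory neuron-like cells it was at 91.6 CPM in E14 and 132 CPM in E18, a ratio of 1.44 (1.38 to 1.52). In that comparison 0 of 2 ligands passed 2-fold in either direction, against 2.71% of genes higher and 2.57% lower.

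Rspo3 differed between the maturing and the newborn class. It was at 53.1 CPM (50.3 to 56.0) in maturing and 3.56 CPM (2.68 to 4.63) in newborn neuron-like cells labelled E14, a ratio of 14.9 (11.4 to 19.9). Rspo3 was the 1 of 2 ligands called higher in this comparison, against 4.6% of genes, and 0 were lower, against 4.85%. In the library labelled E18 it was at 132 CPM (124 to 142) in maturing, 8.50 CPM (6.56 to 10.8) in newborn and 12.5 CPM (10.3 to 15) in the unsplit cells. Maturing neuron-like clusters were unlike in it, and 1 of them stood near the newborn level. A cluster of 725 cells led by Nts and Grin2b among others had 103 CPM and a cluster of 459 cells led by Dact1 and Hs3st4 among others had 135 CPM, whereas a cluster of 853 cells led by Tafa2 and Syt4 among others had 5.8 CPM. Wnt7b did not separate these clusters in that way, with 105, 138 and 99.3 CPM.

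Cajal-Retzius-like cells, early neurons that secrete Reelin and partly come from the hem, carried both genes and, at lower levels, others. Rspo3 was at 279 CPM in 145 cells labelled E16 and 247 CPM in 72 labelled E18, and Wnt7b was at 226 and 207 CPM. Wnt8b was at 50.1 and 41.3 CPM, Rspo2 at 56.2 and 50.9 CPM and Bmp7 at 38.7 and 49.8 CPM. Between these libraries 0 of 7 ligands passed 2-fold, against 7.59% of genes higher and 5.85% lower, and every interval of the ratio held 1. Bmp4, by contrast, had 3 and 0 UMIs in these cells. Lmx1a was at 34.9 CPM in the class.

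**Figure D5:**
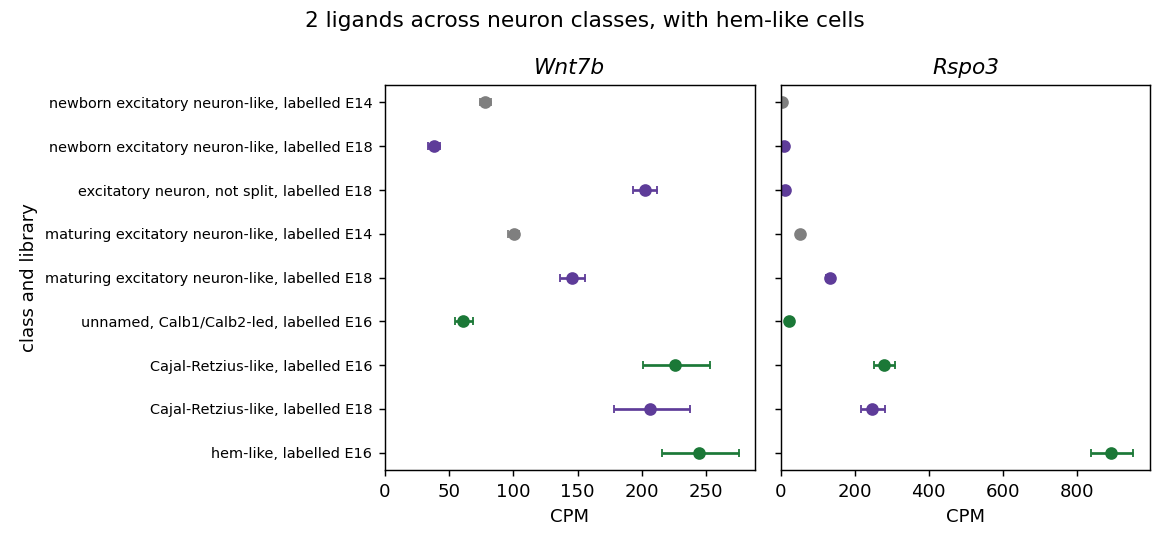
CPM of Wnt7b and Rspo3 in neuron classes by library, with hem-like cells labelled E16 in the last row and 95% counting intervals. A row of 559 unnamed cells led by Calb1 and Calb2, labelled E16, is also drawn. Wnt7b lies between 38.0 and 202 CPM in newborn, unsplit and maturing excitatory neuron-like cells, whereas Rspo3 is at 3.56 to 12.5 CPM in the newborn and unsplit rows and at 53.1 and 132 CPM in the maturing ones.

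The 2 BMPs and Wnt5a were shared with cells outside the neural lineage. In 102 meningeal or fibroblast-like cells labelled E16, Bmp4 was at 71.5 CPM (58.1 to 87.0), Wnt5a at 57.7 CPM (45.8 to 71.9) and Bmp7 at 44.0 CPM (33.7 to 56.6). Wnt8b, Rspo3 and Wnt7b were under 1.5 CPM in these cells and Wnt3a was at 0 UMIs. Apart from them, the unnamed cluster of 29 cells with 501 CPM of Bmp4 had Wfdc1, Esm1 and Igf1 among its leading genes, and in it Rspo3 was at 322 CPM, Lmx1a at 24.3 CPM and Wnt8b at 2.2 CPM. Diencephalon-like cells labelled E16 (64 cells) carried Rspo3 at 346 CPM (309 to 385). In the GABAergic lineage-like class, Wnt5a was at 65.9 CPM (25 UMIs in 58 cells) in the library labelled E14, 49.2 CPM (21 UMIs in 71 cells) in E18 and 2.99 CPM (3 UMIs in 122 cells) in E16.

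Of 76 other genes of these pathways, 42 reached the minimum in hem-like or radial glia-like cells labelled E16, of which 17 (40.5%) were at least 2-fold higher in hem-like cells, against 12.1% of all genes, and 7 (16.7%) lower, against 4.92%. Their median log2 ratio was 0.72, against 0.14 over all genes. Among ligands and release factors, Wnt9a was at 93.9 against 0.235 CPM, Bmp6 at 40.9 CPM against 3 UMIs, and Wls, which carries Wnt proteins to the cell surface, at 495 against 14.6 CPM. Among Wnt targets, Axin2 was at 423 against 51.4 CPM, Sp5 at 41.8 against 2.52 CPM and Nkd1 at 40.9 against 8.64 CPM, which are the 3 of 6 that passed 2-fold. Lef1 did not, with 183 against 272 CPM. The BMP targets Id3 and Id1 were at 930 against 40.8 CPM and 233 against 13.4 CPM. The R-spondin receptors were barely read, with 2 UMIs of Lgr4, 1 of Lgr5 and 0 of Lgr6 in the 68 hem-like cells.

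Other listed genes ran the opposite way in hem-like cells. These were named after their values were seen. Sfrp1, a secreted Wnt inhibitor, was at 46.5 CPM in hem-like and 1055 CPM in radial glia-like cells labelled E16. The receptor gene Fzd8 was at 4.65 against 75.1 CPM, and Id4, unlike Id1 and Id3, at 182 against 1856 CPM. In choroid plexus-like cells, 18 of 44 listed genes (40.9%) were at least 2-fold higher than in radial glia-like cells, against 21.6% of all genes, and 8 (18.2%) lower, against 11.6%, with a median log2 ratio of 0.54 against 0.10 over all genes. The BMP antagonist Grem1 was at 80.4 CPM there, with 3 UMIs in the radial glia-like cells. Id1 was at 358 CPM, Id3 at 274, Axin2 at 219, Wls at 195, Sp5 at 78.2, Nkd1 at 56.7, Fzd6 at 42.5 and Tcf7 at 23.8 CPM, each at least 4-fold higher than in radial glia-like cells.

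Within radial glia-like cells, 6 of 34 listed genes (17.6%) were at least 2-fold higher in E16 over E14, against 2.87% of all genes, and 3 (8.82%) were lower, against 8.08%. Their median log2 ratio was 0.03, against -0.12 over all genes. In E18 over E14, 2 of 32 (6.25%) were higher, against 1.21% of genes, and 2 lower, against 3.86%, with a median of 0.06 against -0.06. In E18 over E16, 0 of 34 were higher, against 2.23% of genes, and 2 (5.88%) lower, against 0.883%, with a median of -0.11 against 0.07. The sign of the first 2 medians of the list changed with the minimum level. Lef1 was at 44.3, 272 and 190 CPM in the order E14, E16 and E18, and Axin2 at 24.6, 51.4 and 38.7 CPM, so both Wnt targets had the same order as Wnt8b. Ror2, a receptor for Wnt5a, was at 2.51, 24.9 and 13.4 CPM. The BMP targets Id1 and Id3 had another order, with Id1 at 79.7, 13.4 and 6.64 CPM and Id3 at 94.2, 40.8 and 21.4 CPM, whereas Id4, at 1042, 1856 and 1538 CPM, had the order of Wnt8b. Wnt7a, a close relative of Wnt7b, was at 36.4, 13.2 and 26.9 CPM.

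The genes most like each ligand were sought by Pearson's r of log2(CPM + 10) over the 24 combinations of class and library, leaving the 10 ligands out of the search, among 6235 other genes of at least 50 CPM in 1 or more of them. Wnt9a was nearest to both Wnt3a (r of 0.94) and Wnt2b (0.97). Casz1, a zinc finger transcription factor, was nearest to Wnt8b (0.91) and Rspo2 (0.96), and was among the 3 nearest of Wnt3a, Rspo1 and Rspo3. Lmx1a was the third gene for Rspo2 (0.93). Bambi, a BMP pseudoreceptor that was used as a hem marker, was nearest to Bmp4 (0.97). Lrp2 was nearest to Rspo1 (0.92), Maf to Wnt5a (0.91) and Mgmt to Bmp7 (0.92). The 2 ligands with many neuronal UMIs had the weakest nearest genes outside the ligands, Fat3 for Wnt7b (0.82) and Btbd3 for Rspo3 (0.81). Among the ligands themselves, Rspo1 with Wnt8b and with Wnt3a were the pairs most alike (0.93) and Wnt5a and Wnt7b the least (-0.28).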

How the data were processed

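Single cells of rat cerebral cortex were analysed in 3 libraries labelled E14, E16 and E18. The deposited values are raw UMI counts per gene and barcode, made with Cell Ranger 6.0.1, as named per the file headers, on build mRatBN7.2 per the submitters' processing notes. The annotation is not given in the sources used here. The labels' protocol also describes an expansion culture, optional freezing, oligo multiplexing and sorting of human cells, and it is not known which of those steps apply to the rat libraries. The 10 genes and all gene lists were chosen with earlier results of these data known.

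Barcodes with at least 1000 genes and at most 10% mitochondrial UMIs were kept, and Scrublet's highest-scoring cells were removed at 0.8% per 1000 cells (158, 216 and 259 cells). The files' totals were 62740631, 80974234 and 73727823 UMIs. Cells of all libraries were clustered together with Scanpy 1.11.5 and leidenalg 0.10.2 (30 components, 15 neighbours, resolution 1), without the ligands and pathway genes. Clusters left unnamed or mixed were split once more at resolution 0.5, a step chosen after hem-like and choroid plexus-like cells had been seen in 1 cluster. Names rest on 122 marker symbols, of which 2 were not found. A name needs at least 3 markers raised 1.2-fold and detected in 20% of cells, and 11 of 44 clusters stayed unnamed. The scoring was settled after clusters had been seen.

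Summed UMIs of each class in each library were scaled to UMIs per 1000000 (CPM), with exact Poisson intervals, exact conditional intervals for ratios and exact Clopper-Pearson intervals for shares (a share of 0 is also given its limit at 3 cells). These intervals cover counting error only. Levels of different genes are not compared per length, since 3′ counts do not scale with it. Combinations of a class and a library under 30 cells give UMIs and are compared in no ratio, whereas clusters are described whatever their size. Genes named are the 10 ligands, the 3 other genes nearest to each over class and library, up to 8 listed genes with the largest ratio per library comparison in radial glia-like cells, and listed genes at least 4-fold higher in hem-like or choroid plexus-like cells, the last 2 kinds with at least 20 CPM. The counts were checked on simulated data with known changes. Software was scipy 1.17.1, numpy 2.4.6 and pandas 2.3.3 under Python 3.11.15, and edgeR 4.0.16 (scaling factors only) under R 4.3.3. Not every gene read across the split by Wnt8b is reported here.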

Additional observations from a re-analysis of the deposited data

How the results depend on the processing

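With at least 2000 genes and at most 5% mitochondrial UMIs per cell, the ligands lower in E16 over E14 over all cells went from 1 to 0, those higher in E18 over E14 from 4 to 2, those higher in E18 over E16 from 1 to 0, and those lower in E18 over E16 in radial glia-like cells from 2 to 0. With a minimum of 20 CPM, the all-cell counts became 2 (higher in E16 over E14), 0 (higher in E18 over E14) and 2 (lower in E18 over E16), and those of radial glia-like cells 0 (higher in E18 over E14), 0 (lower in E18 over E14) and 1 (lower in E18 over E16). With no minimum, 7 were higher in E18 over E14 over all cells and 2 in E16 over E14 in radial glia-like cells. The ligands higher in E18 over E14 over all cells were 1 with doublets removed at 2 times the rate, 1 with 5 CPM added and 2 with cells weighted equally. In radial glia-like cells, those lower in E18 over E16 were 1 with no doublets removed, 1 with 5 CPM added, 1 with cells weighted equally and 0 at 3-fold. Those lower in E18 over E14 were 0 with 5 CPM added and 0 at 3-fold, and those higher in E16 over E14 were 2 with TMM factors and 2 at 1.5-fold. At 3-fold, 0 were higher in E18 over E16 over all cells. Beyond what fewer cells or a stricter threshold set by construction, the cause was not tested. Of 203 recomputed main counts and medians 179 stayed within their limits, as did 305 of 397 others (1.5 times for counts, the counting interval for levels and ratios, and the median such interval of the listed genes for medians). No ratio of at least 2-fold changed sign, but smaller ones did over the alternatives. In E18 over E14 the log2 ratio of Wnt7b was -0.47 (-0.55 to 0.63) and that of Rspo3 0.03 (-0.21 to 1.51, the last with the stricter filter on cells), and in E18 over E16 that of Wnt5a was 0.00 (-0.29 to 0.00). In E16 over E14 the log2 ratio of Rspo3 was 0.42 (0.35 to 2.91) and that of Wnt7b -1.97 (-2.02 to -0.24), and in E18 over E16 that of Rspo3 was -0.39 (-1.40 to -0.35). The pathway medians in radial glia-like cells were 0.03 (-0.16 to 0.17) in E16 over E14 and 0.06 (-0.10 to 0.16) in E18 over E14. Hem-like cells numbered 40 to 92 over 8 alternatives, and were the highest named class for 9 of the 10 ligands in each. Wnt8b in radial glia-like cells, E16 over E14, was at a log2 ratio of 5.09 (3.08 to 5.17). No paired analysis was possible because each label has 1 library. The 15 hem-like cells labelled E18 are too few for comparisons, and the hem-like ratios of Wnt2b, Bmp4 and Rspo2 rest on 4, 21 and 26 UMIs in radial glia-like cells labelled E16, which leaves their size imprecise.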
